A study of Mus musculus with 2 samples.

Results

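The genes described here are 10 genes of the dense-core granule and of prohormone processing, Chga, Chgb, Scg2, Scg3, Scg5, Pcsk1, Pcsk2, Pcsk1n, Cpe and Scgn. The rule that chose them uses their names and no measured value, though the list was drawn up with earlier results of these data known. They are 10 of the 22023 genes present in both deposited single-cell tables. The tables hold dissociated cells of mouse pancreas at embryonic day 15.5, captured on BD Rhapsody cartridges, in which each captured molecule carries a unique molecular identifier (UMI) that is counted once. The library called Mettl3pKO came from transgenic embryos whose Pdx1+ progenitors of the pancreas lack Mettl3, the methyltransferase that places N6-methyladenosine on messenger RNA. The other library, WT, came from wild-type embryos of the same age. The labels name neither the Cre line nor the deleted exons, and they give neither the number of embryos behind a library nor their sex. Mesenchyme, blood and vessel cells do not descend from Pdx1+ progenitors. With 1 library per genotype no difference between genotypes has a replicate check, so no test was run. All intervals are 95% intervals that cover counting error only.

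Levels are given as CPM, the UMIs of a gene per 1000000 UMIs of the named cells. Mettl3 itself was listed at 8.04 CPM (7.28 to 8.86) in Mettl3pKO epithelial cells, against 12.99 (12.1 to 13.97) in WT epithelial cells. In alpha-like cells it stood at 10.2 CPM in Mettl3pKO and 14.5 in WT, and in beta-like cells at 9.74 in Mettl3pKO and 13.9 in WT. In mesenchyme-like cells, outside the deleted lineage, it stood at 13.7 CPM in Mettl3pKO and 16.3 CPM in WT. Reads from outside the deleted exons would be counted, so this level is lower in the library labelled Mettl3pKO but does not measure how complete the loss was. The Mettl3pKO table held 3624 complete cells with a median of 16481 UMIs and none under 10719, and the WT table held 6384 complete cells with a median of 10824 UMIs and a lowest total of 3803. The tables share 33 cell index numbers. After filtering, 3475 Mettl3pKO and 6066 WT cells were kept. They were clustered on variable genes that left out the 10 genes described here, so that a gene's own level did not place a cell. Clusters were named "-like" from marker lists. The endocrine classes held 317 of 2787 epithelial cells in Mettl3pKO (11.4%, 10.2 to 12.6) and 1138 of 4251 in WT (26.8%, 25.4 to 28.1). The tables differ in their lowest cell total, so these shares cannot be compared between libraries.

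Endocrine cells store peptide hormones in dense-core granules. Granins are acidic, calcium-binding cargo proteins that aggregate in the trans-Golgi and help the granule to form. Inside the maturing granule, prohormone convertases cut precursors such as proglucagon and proinsulin at pairs of basic residues, and carboxypeptidase E then trims the basic residues left at the new ends. Chga and Chgb encode the chromogranins, Scg2 encodes the precursor of the neuropeptide secretoneurin, and Scg3 encodes a granin that tethers chromogranin A to the granule membrane. Pcsk1 and Pcsk2 encode the convertases. Scg5 encodes the chaperone that Pcsk2 needs to become active, and Pcsk1n encodes proSAAS, a granin-like inhibitor of Pcsk1. Scgn encodes secretagogin, a cytosolic calcium sensor of endocrine cells, which is not a granule cargo.

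The 10 genes lie apart on the genome (GRCm38, GENCODE vM21). The chromogranin genes are Chga at chr12:102554969-102565028 on the plus strand with 8 exons and Chgb at chr2:132781278-132795079 on the plus strand with 5 exons. The secretogranin genes are Scg2 at chr1:79434669-79440120 (minus strand, 2 exons), Scg3 at chr9:75643189-75684056 (minus strand, 12 exons) and Scg5 at chr2:113776362-113829121 (minus strand, 6 exons). The convertase genes are Pcsk1 at chr13:75089826-75134861 (plus strand, 14 exons) and Pcsk2 at chr2:143546156-143816285 (plus strand, 12 exons). Pcsk1n spans chrX:7919822-7924410 on the plus strand with 3 exons, Cpe spans chr8:64592542-64693054 on the minus strand with 9 exons, and Scgn spans chr13:23953456-23991214 on the minus strand with 11 exons. Pcsk2, Pcsk1n, Scgn and Scg3 each overlap a gene on the opposite strand (Pcsk2os1 and Pcsk2os2, Eras, Gm11339 and Gm37871), and since the sources used here do not say whether counting used strand, their counts are uncertain to that extent. The motif GGACT, a common site of N6-methyladenosine, occurred at a median of 0.620 copies per kb of the longest transcript in the 10 genes, from 0 in Scg2 to 0.945 in Cpe, against a median of 1.01 over 21875 genes.

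The sequences shown next are the last 100 bases before the RefSeq start (RefSeq, GRCm38.p6) of Chga, Chgb, Scg2 and Pcsk1, chosen because each holds a match to the cAMP response element, through which cAMP signalling acts on secretory genes. RefSeq and GENCODE place the starts differently: the Chgb window lies within the GENCODE gene given above, as do most of the Scg2 window and the end of the Pcsk1 window. The palindrome TGACGTCA, which reads the same on both strands, was found in 588 of 32851 promoters of 300 bases (1.79%) and in 3 of the 9 members with an entry in that table, Chgb, Scg2 and Pcsk1. The variant TGACGTAA, searched on both strands, was found in 164 promoters (0.499%) and in that of Chga. The windows run 5′ to 3′ along the gene's strand, with the motif in capitals. They cover chr12:102554841-102554940 (plus) for Chga, chr2:132781542-132781641 (plus) for Chgb, chr1:79440027-79440126 (minus) for Scg2 and chr13:75089757-75089856 (plus) for Pcsk1.
Chga: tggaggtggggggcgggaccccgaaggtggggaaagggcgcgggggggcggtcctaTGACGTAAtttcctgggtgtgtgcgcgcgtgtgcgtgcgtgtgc
Chgb: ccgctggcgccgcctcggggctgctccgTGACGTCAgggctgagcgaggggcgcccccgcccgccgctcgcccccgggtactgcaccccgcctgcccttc
Scg2: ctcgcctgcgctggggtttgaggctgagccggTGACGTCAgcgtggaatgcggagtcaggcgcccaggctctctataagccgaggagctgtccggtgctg
Pcsk1: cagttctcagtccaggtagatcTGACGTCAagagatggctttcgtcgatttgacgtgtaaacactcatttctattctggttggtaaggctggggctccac
The first base of the motif lay 44 bases before the start in Chga, 72 in Chgb, 68 in Scg2 and 78 in Pcsk1. A match describes these letters and does not show that a factor binds there.

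Over the whole epithelium, the summed UMIs of the 10 genes made up 1669.8 CPM (1659 to 1681) in Mettl3pKO and 3431 CPM (3416 to 3447) in WT, a ratio of Mettl3pKO to WT of 0.487. Within the endocrine classes pooled the order was the other way, with 16149 CPM (16038 to 16259.6) in Mettl3pKO and 13264 CPM (13204 to 13324) in WT. The pool was mixed differently in the 2 libraries. Endocrine progenitor-like and Fev precursor-like cells numbered 11 and 18 of 317 in Mettl3pKO, and 218 and 185 of 1138 in WT. The part of this mix in the pooled levels was not tested. The endocrine classes held 91.4% of the genes' UMIs in Mettl3pKO and 93.9% in WT. In cells with at most 10% mitochondrial UMIs and at least 500 genes the ratio over the epithelium was 0.969. Acinar-like cells had a median of 10.7% mitochondrial UMIs in Mettl3pKO and 6.21% in WT, so that filter removed most of those of Mettl3pKO. The lower sum over all epithelial cells stood beside a lower share of endocrine cells and a higher pooled level in the endocrine classes. The Mettl3pKO table held no cell under 10719 UMIs. The endocrine progenitor-like, Fev precursor-like and delta-like clusters had medians of 9108, 8973 and 9011 UMIs over both libraries. The share of endocrine cells therefore cannot be compared between libraries, and no cause of the lower sum was tested. How well the messages of each gene were captured was not measured, so a level is compared between cells for 1 gene at a time and not between genes.

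The stages before hormone expression were followed in WT cells by their own UMIs, among cells past no hormone threshold. The transcription factor Neurog3 starts the endocrine program and Fev marks the precursors that follow. Cells with at least 3 Neurog3 UMIs and fewer than 3 Fev UMIs numbered 256, cells with both numbered 39, and cells with Fev alone numbered 109. Of the 295 WT cells with Neurog3, 98 also lay in the duct and trunk-like class, so that class and these stages share cells. All 10 genes were at least 1.5-fold higher in the cells with both than in the cells with Neurog3 alone, a step at which 15.6% of the 8300 genes measured were higher by that much and 23.7% were lower. From the cells with both to the cells with Fev alone, 7 of the 10 were at least 1.5-fold higher (background 13.2%) and none was lower (background 8.26%).

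**Figure D1:**
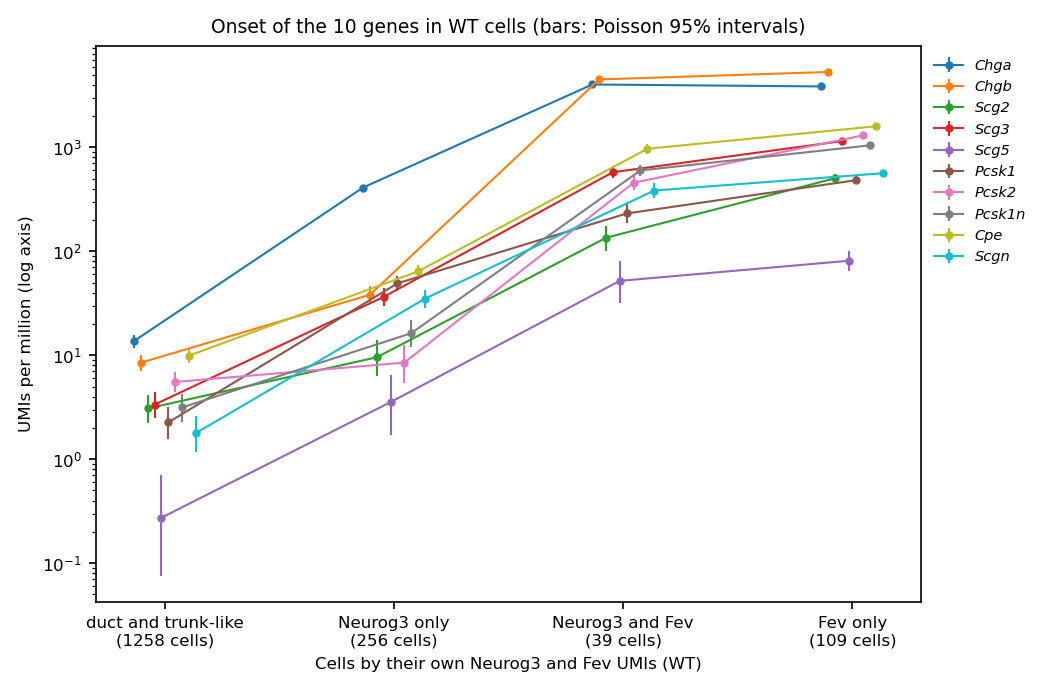
Level of each of the 10 genes in WT cells (CPM, log axis) in duct and trunk-like cells, cells with Neurog3 alone, cells with Neurog3 and Fev, and cells with Fev alone; each line joins the 4 values of 1 gene. Every gene stood higher in cells with both factors than in cells with Neurog3 alone, while Chga and Chgb moved least between the last stages. Of the WT cells with Neurog3, 98 are also counted among the duct and trunk-like cells.

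The summed level of Chga was already well above its duct and trunk-like level in cells with Neurog3 alone, but 27.7% of those cells held a Chga UMI. Chga stood at 13.7 CPM in WT duct and trunk-like cells, 411 with Neurog3 alone, 4029 with Neurog3 and Fev, and 3859.9 with Fev alone. Its step into the cells with both factors was 9.80-fold (9.08 to 10.6), and its step to Fev alone was 0.958-fold (0.903 to 1.02), an interval that includes 1. Chgb, the other chromogranin, went through the same stages at 8.47, 38.2, 4504 and 5319 CPM, with a step of 118-fold (96.97 to 144) into the cells with both factors. From there to Fev alone the step of Chgb was 1.18-fold (1.12 to 1.247). Most of the gain of both messages thus lay between the cells with Neurog3 alone and the cells with both factors.

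The secretogranins kept climbing. Scg2 stood at 3.08 CPM in WT duct and trunk-like cells, 9.56 with Neurog3 alone, 135 with both and 505 with Fev alone, a last step of 3.74-fold. Scg3 stood at 3.35, 36.5, 577 and 1149.8 CPM over the same stages, a last step of 1.99-fold. Scg5, the chaperone of Pcsk2, was at 0.273, 3.54, 51.95 and 81.2 CPM, and its last step of 1.56-fold had an interval of 0.952 to 2.68 that includes 1.

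Of the convertases, Pcsk1 had the smallest step into the cells with both factors, 4.70-fold (3.56 to 6.17), and stood at 2.26, 49.2, 231 and 483 CPM over the 4 stages. Pcsk2 had a step of 53.8-fold (35.01 to 86.2) and stood at 5.54, 8.50, 457 and 1303 CPM. Pcsk1 was therefore above its duct and trunk-like level in the cells with Neurog3 alone, where Pcsk2 was close to its own. A Pcsk1 UMI was seen in 21.9% of those cells. The inhibitor gene Pcsk1n stood at 3.14, 16.3, 600.1 and 1046 CPM, with a step of 36.9-fold into the cells with both factors. Cpe stood at 9.91, 64.1, 969 and 1599 CPM (step 15.1-fold), and Scgn at 1.78, 35.05, 384 and 564 CPM (step 10.97-fold). The 4 genes whose promoters are printed above had steps that ranged from that of Pcsk1 to that of Chgb, the smallest and the largest of the 10.

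Few Mettl3pKO cells were at these stages: 14 with Neurog3 alone, 4 with both and 15 with Fev alone. The median depth of the WT cells at these stages was 9312, 8459 and 8556 UMIs, under the lowest cell total of the Mettl3pKO table (10719), so the numbers of cells cannot be compared between libraries. The cells also lay in different clusters: of those with Fev alone, 5 of 15 in Mettl3pKO and 92 of 109 in WT were Fev precursor-like, and 7 in Mettl3pKO were alpha-like. Of the 18 Mettl3pKO cells with Neurog3, 9 lay in the endocrine progenitor-like class. Their levels are therefore given as values with no ratio. Chga stood at 299, 2959 and 3269 CPM over the 3 stages in Mettl3pKO, against 411, 4029 and 3859.9 CPM in WT. Chgb had 0 UMIs in the 14 Mettl3pKO cells with Neurog3 alone, which allows up to 14.0 CPM at the limit of 3 counts, and stood at 3638 and 2489.7 CPM at the later stages. Pcsk2 likewise had 0 UMIs with Neurog3 alone in Mettl3pKO and then stood at 60.4 and 1376 CPM. In Mettl3pKO cells with Neurog3 alone, Chga had 64 UMIs, 27 of them in 1 cell. The 0 count of Pcsk2 cannot be told from the WT level at this stage, 8.50 CPM, which lies under the limit of 14.0 CPM. Chgb was at 38.2 CPM in WT, but 8.20% of the WT cells held a UMI and 1 cell held 50 of the 108. With 14 Mettl3pKO cells, its 0 count does not show a difference from WT either.

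By cluster, the WT endocrine progenitor-like class (218 cells) and Fev precursor-like class (185 cells) gave a like picture, with 10 of 10 genes at least 1.5-fold higher in the second (background 16.0% higher and 16.5% lower). Cells chosen by Neurog3 and then Fev UMIs, with no clustering, gave 10 of 10 too (background 17.7% higher and 19.6% lower). The progenitor-like class was mixed, since 39 of its WT cells and 1 of its Mettl3pKO cells carried ghrelin (Ghrl) above 0.1% of their UMIs. Scg2 showed this most plainly, at 1152 CPM in those WT ghrelin cells and 16.4 CPM in the progenitor-like WT cells past no hormone threshold. In the Fev precursor-like class, Chgb was spread widely from cell to cell, with a 10th percentile of 524, a median of 2794 and a 90th percentile of 13726 CPM over the WT cells. The 18 Mettl3pKO cells of that class had a 10th percentile of 717, a median of 1810.4 and a 90th percentile of 3901 CPM of Chgb. The class differed in make-up, since 8 of its 18 Mettl3pKO cells and 27 of its 185 WT cells passed the insulin threshold alone.

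The hormone classes used the genes in different amounts. In WT, 6 of the 10 genes were at least 1.5-fold lower in alpha-like (glucagon) than in beta-like (insulin) cells and 1 was higher, at a step where 9.87% of the genes measured were lower and 32.1% higher. In delta-like (somatostatin) against beta-like cells, 4 were lower (background 13.3%) and 1 was higher (background 27.6%). Cells chosen by somatostatin and insulin UMIs gave 5 lower (background 14.0%) and 1 higher (background 25.7%). Cells with ghrelin above the threshold, set against cells chosen by insulin in the same way, had 6 lower (background 13.2%) and none higher (background 40.3%). Only 3 WT cells and no Mettl3pKO cell passed the pancreatic polypeptide threshold, so that class is not described.

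**Figure D2:**
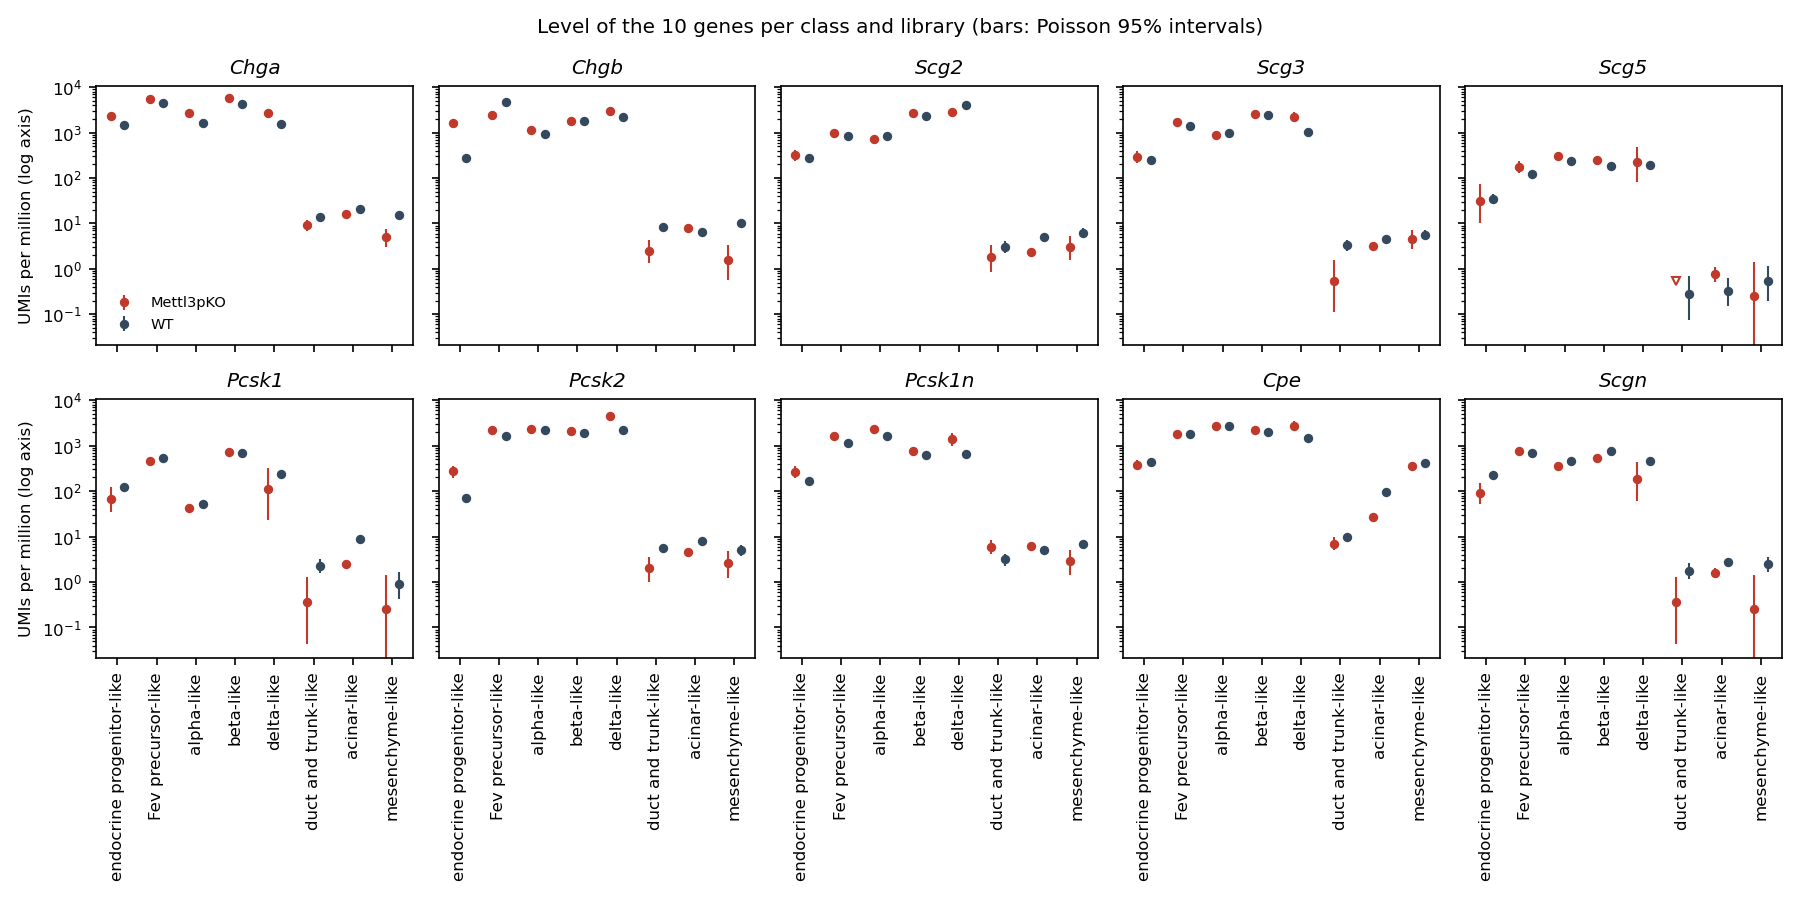
Level of each gene (CPM, log axis) in each cell class, with Mettl3pKO left of WT; each panel is 1 gene, bars on the points are counting intervals, and an open triangle marks a count of 0 at the 3-count limit. The endocrine classes stand apart from duct and trunk-like, acinar-like and mesenchyme-like cells for all genes but Cpe, which is also high in mesenchyme-like cells; the 2 Mettl3pKO cells drawn as delta-like held no somatostatin above the threshold.

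Among the chromogranins, Chga stood at 1620.4 CPM (1581 to 1660.3) in WT alpha-like cells and 4185 CPM (4130.0 to 4241) in WT beta-like cells, a ratio of alpha-like to beta-like of 0.387. It was as low in WT delta-like cells, at 1516 CPM, with a ratio to beta-like of 0.362. Chgb was at 938 CPM in WT alpha-like cells and 1800.5 CPM in WT beta-like cells (ratio 0.521). In WT delta-like cells Chgb stood at 2237 CPM, 1.24 times its beta-like level. In the 8 WT delta-like cells with at least 13000 UMIs, Chga was at 2542 CPM and its ratio to beta-like cells of that depth was 0.567, so the size of the difference moved with depth. Relative to beta-like cells, Chga was the lower and Chgb the higher in delta-like cells at both depths.

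Scg2 had its highest WT level in delta-like cells, at 3941 CPM, against 2265 CPM in WT beta-like cells (ratio 1.74, 1.68 to 1.81). In WT cells with at least 13000 UMIs, 8 delta-like and 212 beta-like, it was at 2997 CPM in delta-like and 2414 CPM in beta-like cells, a ratio of 1.24 (1.12 to 1.37). In WT alpha-like cells it stood at 854 CPM, a ratio to beta-like of 0.377. Scg3, whose product tethers granin aggregates to the membrane, was at 1001 CPM in WT alpha-like cells, 1038 CPM in WT delta-like cells and 2386 CPM in WT beta-like cells. In WT ghrelin cells, Chga was at 2800.0 CPM, Scg2 at 1072, Scg3 at 710.3 and Chgb at 533. Chgb and Scg3 thus had their lowest hormone-class level in the ghrelin cells, at 0.297 and 0.307 of the level in cells chosen by insulin.

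The convertases divided the classes most sharply. Pcsk1 was at 51.4 CPM (44.6 to 58.9) in WT alpha-like cells and 679 CPM in WT beta-like cells, 13.2 times higher in beta-like. In Mettl3pKO it was at 43.6 CPM (35.4 to 53.1) in alpha-like cells and 732 CPM in beta-like cells, so that it was the lower in alpha-like cells in both libraries. Pcsk2, which releases glucagon from proglucagon, was close to even, at 2255 CPM in WT alpha-like, 1917 CPM in WT beta-like and 2244 CPM in WT delta-like cells, and was at 321 CPM in WT ghrelin cells. Pcsk1 in WT delta-like cells stood between the other classes at 239.8 CPM, a ratio to beta-like of 0.353.

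As a share of the UMIs of both convertases, Pcsk1 made up 1.86% (1.51 to 2.26) in Mettl3pKO alpha-like cells and 2.23% (1.94 to 2.55) in WT alpha-like cells. In beta-like cells the share was 26.2% (25.15 to 27.3) in Mettl3pKO and 26.2% (25.4 to 26.9) in WT. The alpha-like share was thus below the beta-like share in both libraries. In cells chosen by hormone UMIs it was 1.28% in Mettl3pKO and 1.86% in WT cells with glucagon, and 25.7% in Mettl3pKO and 25.9% in WT cells with insulin. The share was 9.65% in WT delta-like cells and 41.99% in WT ghrelin cells. In the progenitor-like class, which is mixed with ghrelin cells, 11 Pcsk1 against 44 Pcsk2 UMIs in Mettl3pKO gave an interval of 10.4% to 33.0%, and the share was 62.8% (57.9 to 67.5) in WT. In cells chosen by Neurog3 it was 55.6% (21.2 to 86.3) in Mettl3pKO, on 9 UMIs, and 53.3% (48.4 to 58.1) in WT. In Fev precursor-like cells it was 17.7% (15.0 to 20.8) in Mettl3pKO and 24.3% (23.02 to 25.7) in WT, 18.0% in Mettl3pKO and 18.7% in WT in cells of the class with at least 13000 UMIs, and 13.2% (10.1 to 16.8) in Mettl3pKO and 27.1% (25.1 to 29.1) in WT in cells chosen by Fev UMIs. The share compares classes and does not give a ratio of molecules in the cell, because how well each gene's messages were captured was not measured.

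Cells with any Pcsk1 UMI were counted after thinning every cell to 7818 UMIs. They made up 17.9% (12.06 to 25.2) of alpha-like cells in Mettl3pKO and 20.7% (16.1 to 25.9) in WT. In beta-like cells they were 99.3% in Mettl3pKO and 98.6% in WT. Mesenchyme-like cells, which have no regulated granule secretion, gave 0.365% in Mettl3pKO and 0.700% in WT.

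Pcsk1n was the gene at least 1.5-fold higher in alpha-like cells. It was at 1619 CPM (1579.8 to 1659) in WT alpha-like cells and 637 CPM in WT beta-like cells, a ratio of 2.54 (2.44 to 2.65), so that the inhibitor's message was higher where that of its target convertase was lower. WT delta-like cells had 659 CPM and WT ghrelin cells 537 CPM of Pcsk1n. Scg5 was 1.31 times higher in WT alpha-like than in WT beta-like cells, at 236 and 181 CPM. Cpe, which acts after both convertases, was at 2734 CPM in WT alpha-like cells, 2020.5 CPM in WT beta-like cells and 1443 CPM in WT delta-like cells. Scgn was at 457 CPM in WT alpha-like cells, 462 CPM in WT delta-like cells and 761 CPM in WT beta-like cells, so that the calcium sensor was highest in beta-like cells.

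Between genotypes, the alpha-like and beta-like classes had enough cells for a ratio, with 145 Mettl3pKO and 288 WT alpha-like cells and 141 Mettl3pKO and 352 WT beta-like cells. In alpha-like cells, 1 of the 10 genes was at least 1.5-fold higher in Mettl3pKO and none was lower by that much, where 5.5% of the 9937 genes measured were higher and 3.13% lower. In beta-like cells none of the 10 was past 1.5-fold in either direction, where 3.83% of 9466 genes were higher and 6.45% lower. The median log2 ratio of the 10 genes was 0.01 in alpha-like cells, against -0.00 over all genes, and 0.11 in beta-like cells, against -0.08. When Scrublet's own doublet calls replaced the equal removal in both libraries, Chga in alpha-like cells was at 1.27, none of the 10 was higher by 1.5-fold, and Pcsk1 (0.631) and Scgn (0.654) were lower by that much. Over 14 alternatives, Pcsk1 in alpha-like cells was lower by 1.5-fold in 8 and reached 0.309 at a clustering resolution of 0.5. Its highest value was 1.04, without cells past more than 1 hormone threshold. By counting error alone, 4 genes had an interval above 1 and 3 below it in alpha-like cells, and 8 above and 1 below it in beta-like cells. Of all genes measured, 8.90% had an interval above 1 and 8.71% below it in alpha-like cells. In beta-like cells these shares were 6.72% above and 15.3% below. The interval narrows as UMIs rise, so a gene with many UMIs leaves 1 at a smaller difference.

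**Figure D3:**
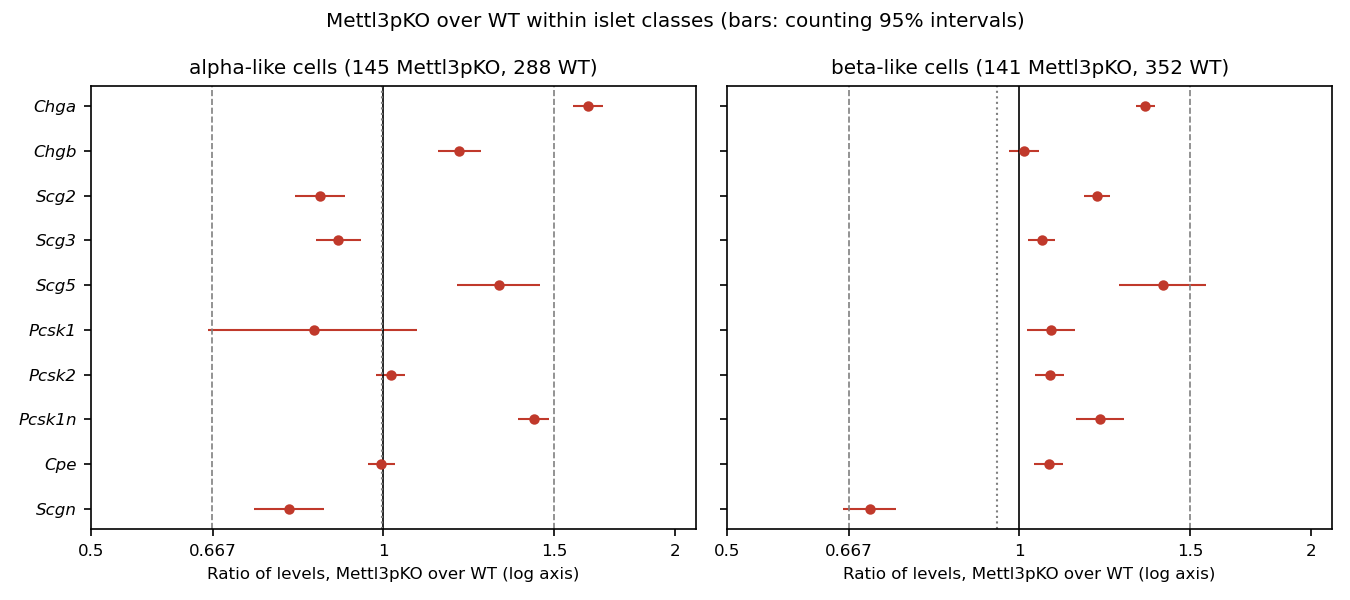
Ratio of Mettl3pKO to WT of each gene (log axis) in alpha-like and beta-like cells, with 95% counting intervals; dashed lines mark 1.5-fold and dotted lines the median of all genes measured. Chga in alpha-like cells, at 1.63, is the point past 1.5-fold, and Scgn lies below 1 in both classes.

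Chga differed most in alpha-like cells. It stood at 2634 CPM (2567 to 2702) in Mettl3pKO alpha-like cells and 1620.4 CPM (1581 to 1660.3) in WT alpha-like cells, a ratio of 1.63 (1.57 to 1.68). In beta-like cells it stood at 5645 CPM (5549 to 5741) in Mettl3pKO and 4185 CPM (4130.0 to 4241) in WT, a ratio of 1.35 (1.32 to 1.38). Chromogranin A message was thus the higher in Mettl3pKO in both classes. Over single alpha-like cells the 10th percentile, median and 90th percentile were 892, 2062 and 5285 CPM in Mettl3pKO, against 345, 1319 and 3098 CPM in WT. Over single beta-like cells they were 1819, 4269 and 10122 CPM in Mettl3pKO, against 1525, 3299.7 and 7076 CPM in WT. The ranges of the cells overlapped widely while each of the 3 percentiles was higher in Mettl3pKO.

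Messages for the inhibitor of Pcsk1 and for the chaperone of Pcsk2 were the higher in Mettl3pKO in both classes, while Pcsk2 itself was close to even. Pcsk1n stood at 2314 CPM (2252 to 2378) in Mettl3pKO alpha-like cells and 1619 CPM in WT alpha-like cells, a ratio of 1.43 (1.38 to 1.48), and at 772 CPM in Mettl3pKO and 637 CPM in WT beta-like cells, a ratio of 1.21 (1.14 to 1.28). Scg5 stood at 311 CPM in Mettl3pKO and 236 CPM in WT alpha-like cells (1.31, 1.19 to 1.45), and at 254 CPM in Mettl3pKO and 181 CPM in WT beta-like cells (1.41, 1.27 to 1.56). Pcsk2, the enzyme that Scg5 serves, had a ratio of 1.02 (0.984 to 1.05) in alpha-like and 1.07 (1.04 to 1.11) in beta-like cells. As a share of the UMIs of Scg5 and Pcsk2 together, Scg5 made up 11.9% (11.1 to 12.8) in Mettl3pKO and 9.49% (8.92 to 10.08) in WT alpha-like cells. In beta-like cells it made up 10.99% (10.2 to 11.9) in Mettl3pKO and 8.63% (8.11 to 9.17) in WT. After thinning, a Scg5 UMI was seen in 86.9% of Mettl3pKO and 76.8% of WT alpha-like cells, and in 82.3% of Mettl3pKO and 71.01% of WT beta-like cells. It was seen in 0 of 274 Mettl3pKO and 0.233% of WT mesenchyme-like cells.

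Pcsk1 had a ratio of 0.848 in alpha-like cells with an interval from 0.660 to 1.08, and of 1.08 (1.02 to 1.14) in beta-like cells. Cpe stood at 2721 CPM in Mettl3pKO and 2734 CPM in WT alpha-like cells, a ratio of 0.995 (0.964 to 1.03), and at 2166 CPM in Mettl3pKO and 2020.5 CPM in WT beta-like cells. Scgn was the gene lower in both classes. It stood at 365 CPM in Mettl3pKO and 457 CPM in WT alpha-like cells (0.799, 0.735 to 0.868), and at 533 CPM in Mettl3pKO and 761 CPM in WT beta-like cells (0.701, 0.657 to 0.747). Its median over single beta-like cells was 524 CPM in Mettl3pKO and 772 CPM in WT.

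Scg2 and Scg3 differed in opposite directions in alpha-like and beta-like cells. Scg2 stood at 735 CPM in Mettl3pKO and 854 CPM in WT alpha-like cells (0.860, 0.811 to 0.913), but at 2725 CPM in Mettl3pKO and 2265 CPM in WT beta-like cells (1.20, 1.17 to 1.24). Scg3 stood at 900.1 CPM in Mettl3pKO and 1001 CPM in WT alpha-like cells (0.899, 0.852 to 0.949), and at 2515 CPM in Mettl3pKO and 2386 CPM in WT beta-like cells (1.05, 1.02 to 1.09). Chgb had a ratio of 1.20 (1.14 to 1.26) in alpha-like cells and of 1.01 (0.976 to 1.05) in beta-like cells. None of these 6 ratios was past 1.5-fold. With the stricter filter on mitochondrial UMIs, Chgb in alpha-like cells was at 0.921 and Scg3 in beta-like cells at 0.994, on the other side of 1.

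**Figure D4:**
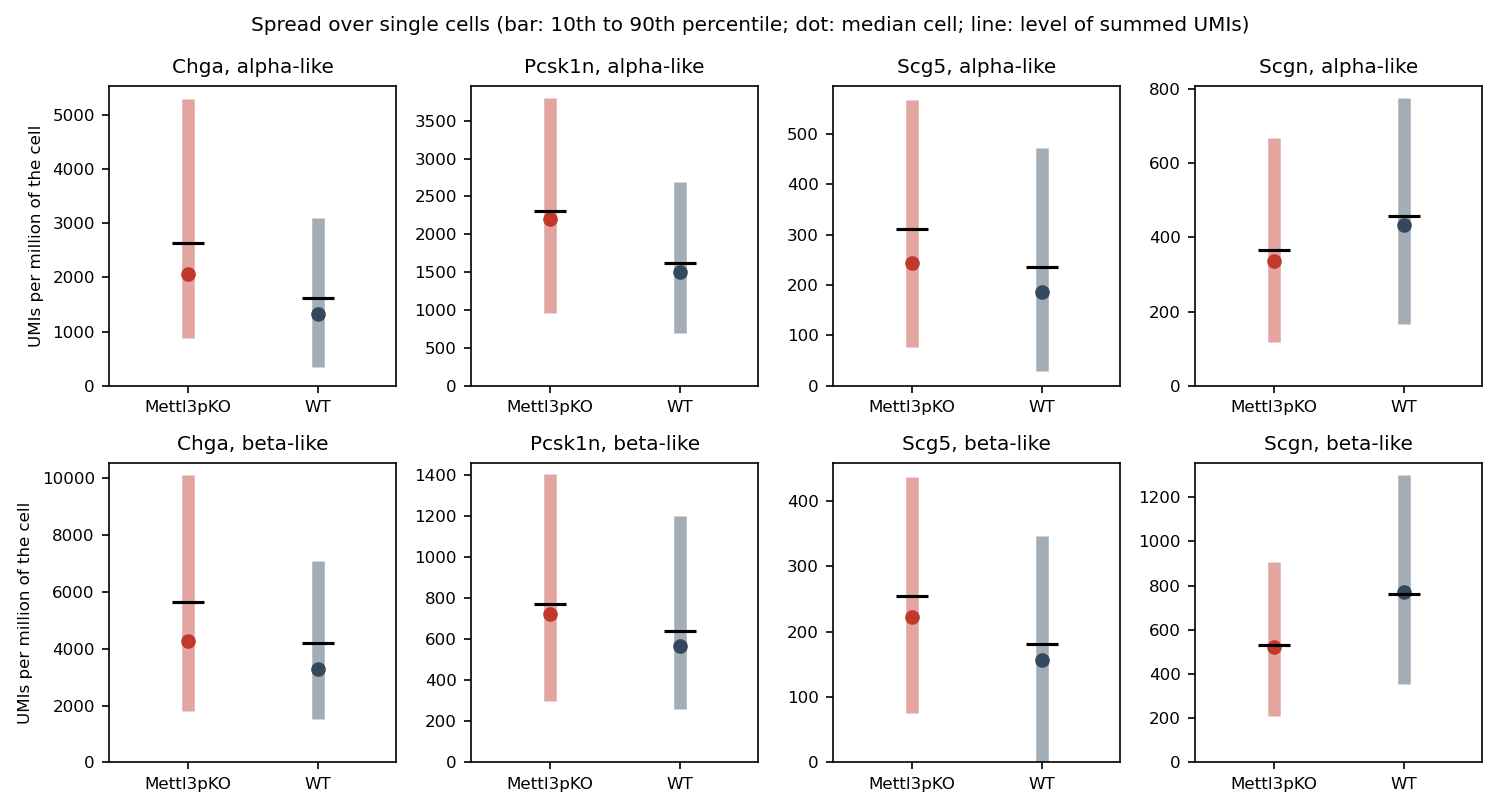
Level per cell (CPM) of Chga, Pcsk1n, Scg5 and Scgn in alpha-like cells (top row) and beta-like cells (bottom row), Mettl3pKO left of WT; the bar runs from the 10th to the 90th percentile of cells, the dot is the median cell and the black line the summed level of the class. The median Scgn cell is at 338 CPM in Mettl3pKO and 433 CPM in WT for alpha-like cells, while Chga, Pcsk1n and Scg5 medians are higher in Mettl3pKO in both rows.

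Markers of other cells moved with these values in alpha-like cells. The 9 mesenchyme markers summed to 1759 CPM in Mettl3pKO and 241 CPM in WT alpha-like cells, and 9 of the 9 were at least 1.5-fold higher in Mettl3pKO. Cells with at least 20 UMIs of those markers were 16 of 145 in Mettl3pKO and 4 of 288 in WT. Without them the alpha-like ratio was 1.63 for Chga, 1.38 for Scg5 and 0.823 for Scgn, and Pcsk1n came past 1.5-fold. For Pcsk1 it was 0.470, against 0.848 with those cells. The 9 beta markers summed to 8198 CPM in Mettl3pKO and 5234 CPM in WT alpha-like cells, with 5 of the 9 at least 1.5-fold higher. In the alpha-like class 1 Mettl3pKO cell and 0 WT cells passed the insulin threshold alone. Among Mettl3pKO alpha-like cells past no more than 1 hormone threshold, 1 cell held 1229 of the 1723 Ins1 UMIs. The part of that cell in the beta marker sum was not tested. The alpha markers summed there to 103328 CPM in Mettl3pKO and 97518 CPM in WT. Leaving out alpha-like cells past more than 1 hormone threshold, 12 in Mettl3pKO and 50 in WT, the ratio of Chga was 1.70 and that of Pcsk1 was 1.04. Those 50 WT cells held 54 of the 206 Pcsk1 UMIs of WT alpha-like cells, and the 12 Mettl3pKO cells held 1 of 98. The Pcsk1 ratio thus moved in both directions, depending on which cells were left out.

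In beta-like cells the mesenchyme markers summed to 157 CPM in Mettl3pKO and 128 CPM in WT, and the ratios without cells holding 20 such UMIs were 1.35 for Chga and 0.699 for Scgn. The beta markers, insulin among them, summed to 201704 CPM in Mettl3pKO and 164127 CPM in WT, which leaves a smaller share of the UMIs for other genes in Mettl3pKO. With hormone, mitochondrial, ribosomal and globin UMIs left out of the total, the beta-like ratio was 1.43 for Chga, 1.49 for Scg5 and 0.745 for Scgn. The median depth was 14679 UMIs in Mettl3pKO and 13396 in WT alpha-like cells, and 15641 in Mettl3pKO and 13897 in WT beta-like cells. Mitochondrial UMIs had a median of 7.93% in Mettl3pKO and 7.36% in WT alpha-like cells, and of 7.61% in Mettl3pKO and 7.06% in WT beta-like cells. The part of depth and of RNA quality in the ratios was not tested.

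Other genes of granule biology were read from lists drawn up by name. The list named for other granins and granule cargo also held genes of other products. Among its 12 measured genes, 3 were at least 1.5-fold higher and 2 lower in Mettl3pKO alpha-like cells, with a median log2 ratio of 0.26. In beta-like cells 2 were higher and 2 lower, with a median of 0.07. Over all genes measured, 5.5% were higher and 3.13% lower in alpha-like cells, and 3.83% higher and 6.45% lower in beta-like cells, with medians of -0.00 and -0.08. Npy, a neuropeptide of immature islet cells, stood at 25.3 CPM in Mettl3pKO and 2.24 CPM in WT alpha-like cells (11.3-fold, 5.55 to 25.9), on 57 and 9 UMIs. In beta-like cells it stood at 1251 CPM in Mettl3pKO and 705 CPM in WT (1.77-fold). Nnat, in the same list though it encodes the small membrane protein neuronatin, stood at 181 CPM in Mettl3pKO and 29.7 CPM in WT alpha-like cells. The part of the Mettl3pKO alpha-like cell with insulin described above in the alpha-like values of Npy and Nnat was not tested. Ucn3, a peptide of maturing beta cells, was at 80.9 CPM in Mettl3pKO and 49.04 CPM in WT beta-like cells. Somatostatin message was lower in Mettl3pKO in both classes, at 5.78 CPM in Mettl3pKO and 37.4 CPM in WT alpha-like cells and at 251 CPM in Mettl3pKO and 538 CPM in WT beta-like cells. Most of the beta-like message lay in 3 cells of each library past more than 1 hormone threshold. Without those cells, 37 of 594 UMIs remained in Mettl3pKO (16.1 CPM) and 305 of 2818 in WT (58.8 CPM). Cells past the somatostatin threshold and no other numbered 2 in Mettl3pKO and 81 in WT, and the part of their free RNA in these levels was not tested.

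Of the other convertases and trimming enzymes, 0 of 13 measured were higher and 1 lower in alpha-like cells, with a median log2 ratio of 0.05, and 0 of 12 were past 1.5-fold in beta-like cells, with a median of -0.02. The lower one was Cpm, another carboxypeptidase that removes basic residues, at 33.8 CPM in Mettl3pKO and 51.6 CPM in WT. In the granule membrane list, 1 of 17 was higher in each class, and it was Bace2, a membrane protease of beta cells, at 56.4 CPM in Mettl3pKO and 11.7 CPM in WT alpha-like cells and at 196 CPM in Mettl3pKO and 117 CPM in WT beta-like cells. The part of the Mettl3pKO alpha-like cell with insulin in the alpha-like value of Bace2 was not tested. The list's median log2 ratio was 0.01 in alpha-like and -0.01 in beta-like cells.

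Of the docking and exocytosis genes, 1 of 19 was higher in alpha-like cells, and 1 of 21 was higher and 1 lower in beta-like cells, with medians of -0.03 and -0.20. Rab3b, a small GTPase of granule docking, was at 74.9 CPM in Mettl3pKO and 127 CPM in WT beta-like cells. Endocrine transcription factors held 0 of 16 past 1.5-fold in alpha-like cells and 3 of 18 lower in beta-like cells, with medians of -0.14 and -0.28, where 6.45% of all genes were lower in beta-like cells with a median of -0.08. Pax4, which favours the beta fate, was at 2.54 CPM in Mettl3pKO and 10.9 CPM in WT beta-like cells, and Mnx1, a homeobox factor of beta cells, at 36.8 CPM in Mettl3pKO and 60.3 CPM in WT.

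The delta-like and ghrelin cells were too few in Mettl3pKO for a ratio, at 2 and 3 cells in Mettl3pKO against 95 and 46 in WT. Neither of the Mettl3pKO cells that clustered as delta-like passed the somatostatin threshold, where 77 of the 95 WT cells passed it alone, so their values are not set beside those of WT. In ghrelin cells Pcsk1n was at 1609.5 CPM in Mettl3pKO and 537 CPM in WT, and Scgn at 499 CPM in Mettl3pKO and 681 CPM in WT. The 3 Mettl3pKO ghrelin cells lay 1 each in the Fev precursor-like, alpha-like and progenitor-like classes, where 39 of the 46 WT ghrelin cells were progenitor-like. With so few cells, these values describe only the cells caught.

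Cpe, unlike the other 9 genes, was high in mesenchyme-like cells as well. There it stood at 361 CPM (342 to 380) in Mettl3pKO and 408 CPM (396 to 419.8) in WT, a ratio of 0.884 (0.832 to 0.939), and smooth muscle and pericyte-like cells held 284 CPM in Mettl3pKO and 408 CPM in WT. After thinning, a Cpe UMI was seen in 89.05% of Mettl3pKO and 88.2% of WT mesenchyme-like cells, against 4.26% of Mettl3pKO and 5.87% of WT duct and trunk-like cells. The other 9 genes stood at or under 15.3 CPM in mesenchyme-like cells of both libraries. Glucagon, a message of alpha cells, was itself at 101 CPM there in Mettl3pKO and 118 CPM in WT, so that such low levels cannot be told from free RNA.

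In mesenchyme-like cells 5 of the 7 genes with enough UMIs were at least 1.5-fold lower in Mettl3pKO and none was higher (background 4.33% lower and 6.2% higher). In duct and trunk-like cells 5 of 7 were lower and 1 higher (background 7.62% lower and 10.2% higher), and in acinar-like cells 5 of 9 were lower and none higher (background 6.67% lower and 20.8% higher). Apart from Cpe these counts rest on levels of at most 20.6 CPM in either library. The hormones moved the same way beside them, with Ins2 at 70.95 CPM in Mettl3pKO and 125 CPM in WT duct and trunk-like cells, and the part of free RNA was not tested.

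Acinar-like cells held Cpe at 27.0 CPM in Mettl3pKO and 95.1 CPM in WT, a ratio of 0.284 (0.264 to 0.305). The share of cells with a UMI after thinning was 15.2% (13.7 to 16.9) in Mettl3pKO and 43.5% (41.2 to 45.9) in WT. The mix of acinar clusters moved with this. The cluster led by trypsinogen genes (Gm10334 and Prss3) held 39 Mettl3pKO cells, 1.84% of the acinar-like cells, and 522 WT cells, 28.1%. Cpe in it was at 185 CPM in Mettl3pKO and 225 CPM in WT, a ratio of 0.823 (0.675 to 0.995). Its median depth was 15205 UMIs in Mettl3pKO and 10639 in WT, and the WT value lies under the lowest cell total of the Mettl3pKO table, 10719.

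In the largest acinar-like cluster of Mettl3pKO, led by Serpina6 and Vtn, Cpe was at 28.9 CPM in Mettl3pKO (817 cells) and 24.98 CPM in WT (108 cells). In the cluster led by the division genes Fam83d and Ube2c it was at 12.4 CPM in Mettl3pKO (697 cells) and 14.4 CPM in WT (104 cells). The cluster led by Slfn9 and Rrm2 had a lower level in Mettl3pKO, at 19.8 CPM in Mettl3pKO and 49.9 CPM in WT (0.396, 0.310 to 0.504). Cpe was also lower in the cluster led by Gc and Aqp8, the largest of WT, at 56.9 CPM in Mettl3pKO and 72.4 CPM in WT (0.786, 0.654 to 0.940). In the cluster led by Cckar it was at 49.4 CPM in Mettl3pKO and 70.3 CPM in WT (0.703, 0.557 to 0.879). Cpe was thus lower in Mettl3pKO, with an interval under 1, in 4 of the 6 clusters. Pcsk1 was at 2.53 CPM in Mettl3pKO and 8.89 CPM in WT over all acinar-like cells, and at 19.2 CPM in Mettl3pKO and 19.1 CPM in WT in the trypsinogen-led cluster. In the cluster led by Fam83d and Ube2c it was at 1.12 CPM in Mettl3pKO and 3.49 CPM in WT (0.319, 0.129 to 0.862). In the other 4 clusters its ratio lay between 0.391 and 0.857, with intervals that include 1.

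**Figure D5:**
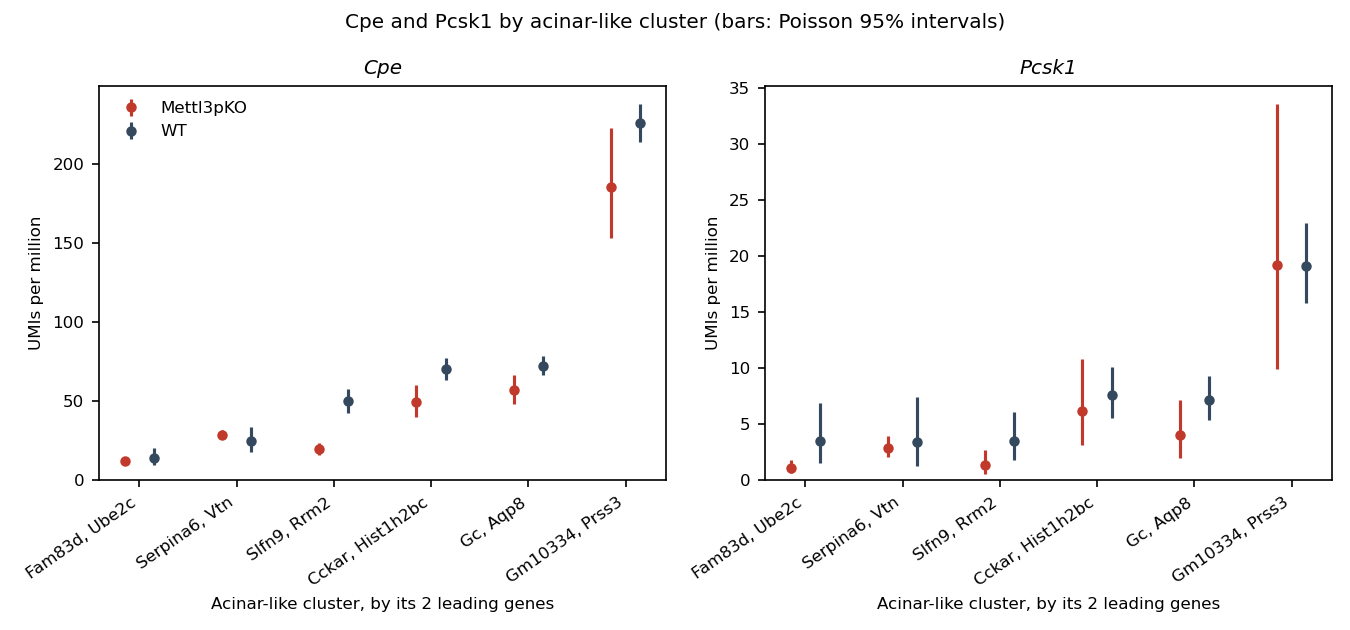
Cpe and Pcsk1 (CPM, linear axis) in the 6 acinar-like clusters, Mettl3pKO left of WT, ordered by the WT level of Cpe, with 95% counting intervals. The trypsinogen-led cluster is highest for both genes, at 185 CPM in Mettl3pKO and 225 CPM in WT for Cpe.

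A small unnamed cluster led by the neuronal genes Stmn2, Rtn1 and Prph, with 2 Mettl3pKO and 6 WT cells, also held granins. In it Scg2 was at 511 CPM in Mettl3pKO and 565 CPM in WT, Scg3 at 496 CPM in Mettl3pKO and 291 CPM in WT, and Pcsk1n at 861 CPM in Mettl3pKO and 428 CPM in WT. Chga there was at 29.2 CPM in Mettl3pKO and 77.1 CPM in WT, under its level in every endocrine class of the same library. Mesothelium-like cells of Mettl3pKO showed Chga at 675 CPM, against 11.01 CPM in WT, but 7 of those cells passed a hormone or Neurog3 threshold, and without hormone cells the level was 47.6 CPM in Mettl3pKO and 10.5 CPM in WT. The 1 Mettl3pKO cell with Neurog3 was still among them, and it held 27 of their 50 Chga UMIs.

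The genes most like 9 of the members over the 13 WT classes were found by Pearson's r of log2(CPM + 1) among 7696 genes. These values describe classes that share 1 library, and with few endocrine classes any endocrine gene scores high. Chga was closest to Fam183b (0.991), Neurod1 (0.990), an endocrine transcription factor, and Pax6 (0.989), another. Scg2, Scg3 and Scg5 each had Snap25, a vesicle fusion protein, as the closest gene, at 0.984, 0.988 and 0.988. Pcsk2 was closest to Tnr (0.988), Ptprn (0.987), a granule membrane protein, and Iapp (0.985). Chgb was closest to Nol4 (0.987), Pcsk1n to A2ml1 (0.989) and Scgn to Disp2 (0.993). Cpe, which is also high in mesenchyme-like cells, had the lowest best value, 0.949 with Unc5a.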

How the data were processed

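Single cells of 1 Mettl3pKO and 1 WT pancreas library were captured on BD Rhapsody cartridges, per the labels' protocols. The deposited tables hold UMI counts as whole numbers, 1 row per cell, made with version 1.8 of the BD WTA Rhapsody Analysis Pipeline per the file headers, and mm10 and Seurat are named in the submitters' processing notes. The type of UMI correction, the strand used and any cell cut-off are not given in the sources used here. A cut line at the end of each table (1 per library) was dropped. The UMI totals were 65779771 in Mettl3pKO and 80011421 in WT.

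Cells needed 200 genes and could have up to 25% mitochondrial UMIs, and the 5% with the highest Scrublet score were removed from each library, because Scrublet itself called 1 Mettl3pKO cell (0.0276%) and 336 WT cells (5.26%). With scanpy 1.11.5 (Python 3.11.15, numpy 2.4.6, scipy 1.17.1, python-igraph 0.11.9), 2000 variable genes without the 10 members, 30 components, 15 neighbours and Leiden clustering at resolution 1.0 gave the classes, which took their names from marker lists where at least 3 markers were detected. Clusters with a median doublet score over 0.1, or with more top markers of another class, stayed unnamed (226 Mettl3pKO and 114 WT cells). Cells were also grouped by their own UMIs: insulin, Gcg, Sst or Ppy at 0.5% or more, Ghrl at 0.1% or more, Neurog3 or Fev at 3 UMIs or more. The split by Neurog3 and Fev together was chosen after seeing the data.

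UMIs were summed per library and class. Ratios are Mettl3pKO over WT, or the first-named class over the other within WT, with exact conditional binomial 95% intervals, and were computed for genes with at least 50 UMIs over both and for classes of at least 30 cells in both libraries. Levels have exact Poisson and shares Clopper-Pearson intervals. Intervals cover counting error only. Genes past 1.5-fold are counted beside the same share of all genes. Only the ratios and their intervals were tested on simulated data, with independent Poisson counts that hold no spread between cells or libraries. The members and the lists were chosen with earlier results of these data known. All 10 members are described; from each pathway list those with the 2 lowest and 2 highest ratios could be named, and for likeness the 3 genes with the highest correlation among genes with at least 50 CPM in a class. The likeness of Pcsk1 is not reported here. Loci come from GENCODE vM21 and promoters from RefSeq, which held 9 of the 10 members. Alternatives covered doublet removal, filters, depth, resolution, scaling, thresholds and embryo sex by Xist and Y-linked UMIs.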

Additional observations from a re-analysis of the deposited data

Results flagged for a closer look

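Scg2 and Scg3 had ratios on opposite sides of 1 in alpha-like and beta-like cells. For Scg2 the ratio of Mettl3pKO to WT was 0.860 in alpha-like and 1.20 in beta-like cells, and the alpha-like ratio divided by the beta-like ratio was 0.715. It was below 1 in alpha-like and above 1 in beta-like cells under 14 of 14 alternatives. For Scg3 the ratio was 0.899 in alpha-like and 1.05 in beta-like cells, and their quotient was 0.853, but under 2 alternatives the beta-like ratio also lay below 1. With 1 library per genotype, neither difference between the classes was tested.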

How the results depend on the processing

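No paired analysis was possible because each genotype had 1 library. In alpha-like cells the count of members at least 1.5-fold higher in Mettl3pKO was 1. It was 2 with no doublet removal, with a stricter filter (500 genes, 10% mitochondrial UMIs), with no filter, at resolution 0.5 and without cells holding 20 mesenchyme-marker UMIs, the added member being Pcsk1n. It was 0 with only Scrublet's calls removed and at a threshold of 2-fold, and 3 at the lower fold threshold. The count lower was 0, and 1 under no doublet removal, the strict filter, no filter, resolution 0.5, resolution 2.0, members kept among the variable genes, the lower threshold and no mesenchyme-marker cells; under the settings at 1.5-fold that member was Pcsk1. It was 2 with Scrublet's calls, Pcsk1 at 0.631 and Scgn at 0.654. Beta-like cells had 0 in both directions, and 2 higher and 1 lower at that threshold. Over 14 alternatives Chga in alpha-like cells ranged over 1.27 to 1.72 and stayed past 1.5-fold in 13; Pcsk1 ranged over 0.309 to 1.04. In beta-like cells Chga ranged over 1.20 to 1.43 and Scgn over 0.691 to 0.756. With Scrublet's calls the beta-like ratio lay below 1 for Scg3 (0.936), Pcsk1 (0.989), Pcsk2 (0.987) and Cpe (0.973); with the strict filter Chgb in alpha-like was 0.921 and Scg3 in beta-like 0.994; at resolution 0.5 Pcsk1 in beta-like was 0.983. The causes were not tested.

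The summed ratio over epithelial cells (0.487) was 0.544 with no doublet removal, 0.512 with Scrublet's calls, 0.969 with the strict filter, 0.557 with no filter, 0.451 in cells of 13000 UMIs or more, 0.548 at resolution 2.0, 0.477 with members among the variable genes, 0.506 with totals without hormone, mitochondrial, ribosomal and globin UMIs, 0.543 with median-of-ratios scaling, 0.544 in cells with Xist and no Y-linked UMI, 0.337 in cells with a Y-linked and no Xist UMI, and 0.469 without mesenchyme-marker cells. In cells of 13000 UMIs or more, 0 members were 1.5-fold higher in delta-like than in beta-like WT cells, of which 8 delta-like cells remained. The Pcsk1 share of convertase UMIs in alpha-like cells was 1.28% by hormone UMIs and 1.48% in deep cells for Mettl3pKO, and 1.86% and 1.75% for WT. Without thinning, cells with a UMI were 29.2% for Pcsk1 in WT alpha-like cells, and 26.1% in Mettl3pKO and 55.6% in WT for Cpe in acinar-like cells. The step from progenitor-like to Fev precursor-like cells had no value under no doublet removal, the strict filter and resolution 2.0, and the delta-like step had none under the strict filter, since the class then held 0 WT cells. The alternatives on mesenchyme-marker cells, on cells of more than 1 hormone and on acinar-like clusters were chosen after seeing the data. The small number of cells limits the values of the Mettl3pKO progenitor-like (11 cells), Fev precursor-like (18 cells) and delta-like (2 cells) classes.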
